A study of Arabidopsis thaliana with 12 samples.

Results

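The genes described here are 43 nucleus-encoded genes of *Arabidopsis thaliana* that carried a higher array signal in the psad1 mutant than in the wild type (WT). They were chosen by their values: each is the only gene listed for a probe whose log2 intensity, averaged over 6 psad1 samples, exceeded the average of 6 WT samples by 0.30 or more. They are 43 of the 639 genes with a measured probe of their own. Of 3439 probes with deposited values, 640 listed 1 gene and were above the floor in at least 1 sample. The floor is a lower limit set for each sample. Of the 640 probes, 44 form the group, since AT2G25870 has 2 probes. AT4G32060, AT4G39690, PAC, NdhS, HEMA3 and AT3G52960 also reached the threshold but were set aside by the selection rule. Because the size of the difference chose the genes, that difference is a description here and not evidence of a response.

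Total RNA was taken from psad1 and from WT, both in the ecotype Columbia 0, with 6 samples each. The mutant lacks PSI-D1, one form of the PSI-D subunit of photosystem I. The labels give no allele, tissue, plant age or growth condition, and nothing says whether samples came from separate plants, so any spread between them may be technical. PSAD1 and its homologue PSAD2 were not listed for any probe, so the genotype labels were taken as given.

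PSI-D sits on the stromal side of photosystem I, where ferredoxin docks and takes up electrons. Plants with impaired photosystem I often have altered transcript levels of nuclear genes, since signals from the chloroplast reach the nucleus. The genes described here encode products as different as ribosomal proteins, nucleoporins, enzymes and transcription factors, and they were grouped by product from general knowledge of each locus, because the tables used hold names but no product descriptions.

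The mean intensity per sample was between 1.05 and 1.07 and the median between 0.554 and 0.623, in arbitrary units. The 6 samples of a genotype fell into pairs by likeness: numbers 1 and 2 are called set 1, numbers 3 and 4 set 2, and numbers 5 and 6 set 3. Deviations from the genotype's mean correlated across probes with r from 0.612 to 0.649 within psad1 sets and from 0.469 to 0.613 within WT sets, and with at most -0.276 between psad1 sets and at most -0.111 between WT sets. Taking deviations from the mean of the same samples pushes correlations between sets to negative values, so their sign is not a result. Because samples within a set were alike, each mean ± SD below is over 3 set averages. Each standard error (SE) of a log2 difference is likewise from set averages. Of 10 genes of green tissue that were looked up, PSAN, SBPASE, CHLM, LHB1B2 and PRK were measured, with a summed intensity of 24.27 to 31.4 in psad1 and 24.02 to 28.2 in WT. No root, seed or pollen marker was measured, so the tissue was not checked further. In RNA from whole tissue, fewer cells of a type and less RNA per cell cannot be told apart.

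The differences were small. The log2 difference between psad1 and WT was between 0.31 and 0.63, which is 1.24-fold to 1.55-fold, with a median of 0.37 (1.29-fold), while the median over all 640 probes with 1 gene was -0.017. Of the probes with 1 gene (the genes set aside included) 7.81% reached 0.30 or more, as did 9.24% of all 3202 tested probes. In 19 of the 44 probes every psad1 sample was above every WT sample, a pattern that 4.22% of the probes with 1 gene showed. Every psad1 set average was above every WT set average in 29, against 8.12% of the probes with 1 gene. Fitted with limma on 12 samples, 29 of the 44 were higher in psad1 at an adjusted p under 0.05 (6.56% of the probes with 1 gene), and on set averages only AT1G06730 was (0.312%). The choice of the genes fixes these counts, and nothing is read from them.

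**Figure D1:**
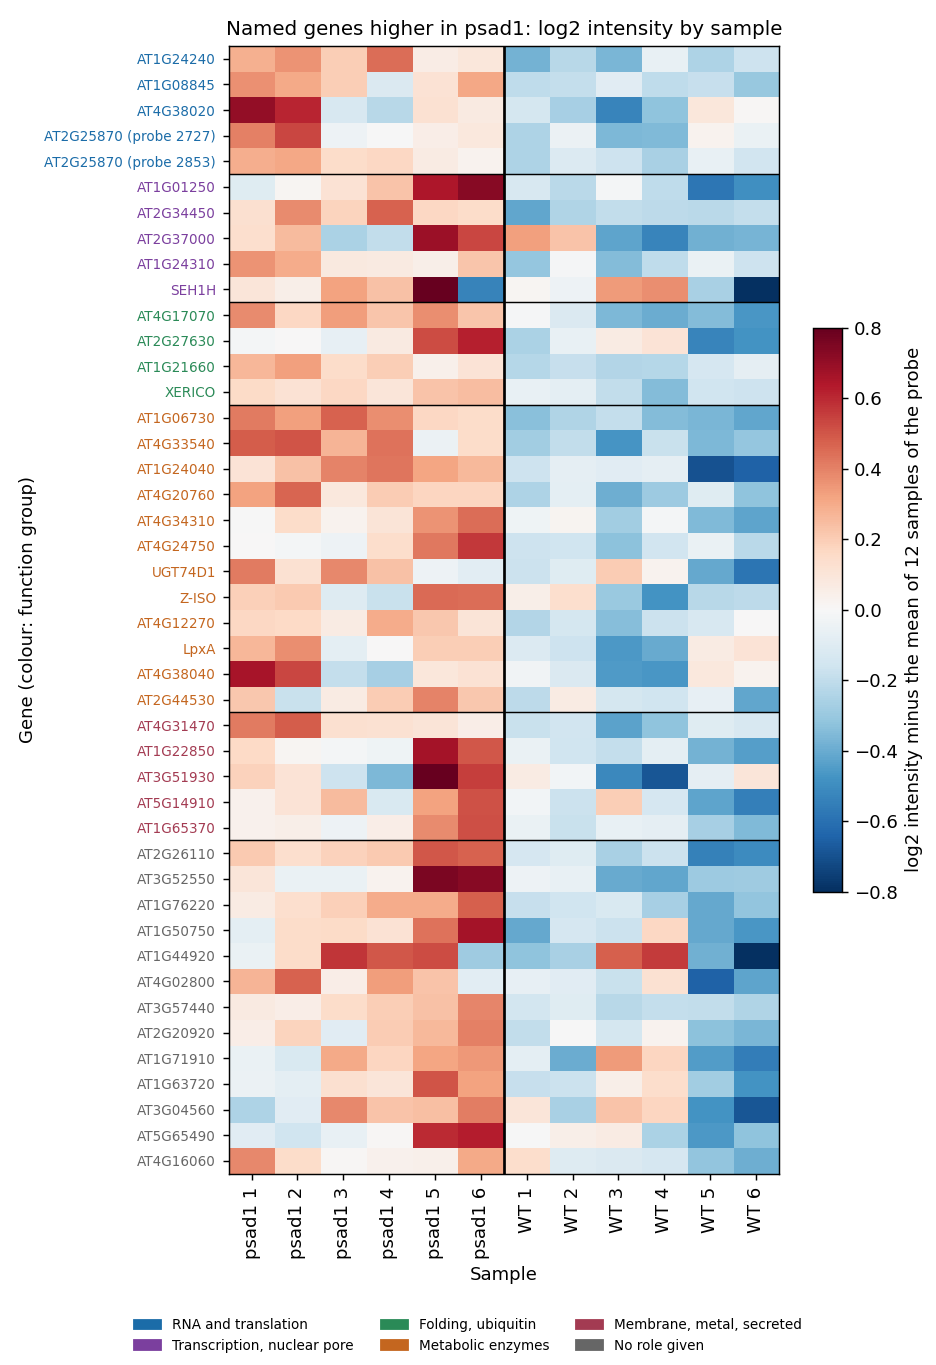
Each row is a probe and each column a sample, with psad1 samples 1 to 6 on the left and WT samples 1 to 6 on the right; colour gives the log2 intensity minus the mean of the 12 samples of that probe, with the scale ending at 0.8 in either direction. Row labels are coloured by function group, and several rows are deepest red in psad1 samples 5 and 6 and deepest blue in WT samples 5 and 6, as in AT1G01250 and AT2G27630, while XERICO and AT4G12270 vary little between sets.

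At the edge of the selection, AT2G44530, AT4G16060 and AT5G65490 lay just inside with log2 differences of 0.3063, 0.3069 and 0.3071. Just outside were AT5G10920, AT2G29180 and AT2G26100 with 0.2996, 0.2964 and 0.2918. AT2G29180 had 0.439, 0.466 and 0.490 in psad1 (lowest, median and highest sample), against 0.361, 0.378 and 0.402 in WT, so its samples did not overlap although it fell short of the threshold. AT5G65490 had 0.387, 0.426 and 0.670 in psad1 and 0.316, 0.398 and 0.454 in WT, with overlapping samples.

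One group of 4 genes handles RNA or takes part in translation. AT1G24240 and AT1G08845 belong to families of large-subunit ribosomal proteins of the bacterial type, AT4G38020 encodes a methyltransferase of the SpoU family that acts on RNA, and AT2G25870 encodes a protein with a YbeY domain, which in chloroplasts takes part in the maturation of ribosomal RNA. Over their 5 probes the median log2 difference was 0.39. AT1G24240 had 0.723, 0.819 and 0.943 in psad1 (lowest, median and highest of 6 samples) and 0.535, 0.589 and 0.667 in WT. All psad1 samples were above all WT samples, and the log2 difference was 0.48 (SE 0.09, n = 3 sets). AT1G08845 had 1.36, 1.75 and 1.90 in psad1 and 1.19, 1.29 and 1.38 in WT, a log2 difference of 0.39 (SE 0.09). Here 5 of the 6 psad1 samples were above the highest WT sample.

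AT2G25870 was read by 2 separate probes. Probe 2727 had 0.977, 1.06 and 1.46 in psad1 and 0.785, 0.908 and 1.03 in WT, a log2 difference of 0.34 (SE 0.18). Probe 2853 had 0.753, 0.822 and 0.913 in psad1 and 0.616, 0.660 and 0.709 in WT, a log2 difference of 0.33 (SE 0.08). The samples of the genotypes overlapped on probe 2727, where psad1 set 1 was at 1.40 and psad1 sets 2 and 3 at 0.991 and 1.06, and were apart on probe 2853. Without psad1 set 1 the difference on probe 2727 was 0.20. In AT4G38020 psad1 set 1 also stood apart, at 0.731 against 0.411 and 0.496 in the other psad1 sets and 0.346 to 0.480 in the WT sets. Its log2 difference was 0.39 (SE 0.28) and 0.15 without psad1 set 1.

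Both ribosomal genes were also listed for a probe shared with close relatives. The probe that lists AT1G08845 with AT5G27820 and AT3G20230 had medians of 4.76 in psad1 and 5.49 in WT, a log2 difference of -0.27. The probe that lists AT1G24240 with AT5G11750 and AT4G11630 had 0.642 and 0.688, a log2 difference of -0.12. For these 2 families the shared probe and the gene's own probe thus differed in direction. Transcripts of relatives with similar sequence may reach either probe, which was not tested.

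A group of 5 genes acts in the nucleus. AT1G01250 encodes a transcription factor of the DREB group, AT2G34450 a protein with a high-mobility-group DNA-binding box and AT2G37000 a TCP family transcription factor, while AT1G24310 and SEH1H encode nucleoporins, the proteins that build the nuclear pore. Their median log2 difference was 0.38. AT2G34450 was the most even of them: it had 0.368, 0.378 and 0.466 in psad1 and 0.252, 0.291 and 0.295 in WT, with no overlap and a log2 difference of 0.49 (SE 0.06). AT1G24310 had 0.455, 0.490 and 0.566 in psad1 and 0.346, 0.388 and 0.438 in WT, a log2 difference of 0.36 (SE 0.09), again without overlap.

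The other 3 varied more between sets or samples. AT1G01250 was at 0.464, 0.538 and 0.768 in psad1 sets 1 to 3 and at 0.423, 0.443 and 0.330 in WT sets 1 to 3. Its log2 difference of 0.54 (SE 0.25) was 0.34 without psad1 set 3. AT2G37000 was at 0.463, 0.347 and 0.618 in the psad1 sets and at 0.491, 0.291 and 0.312 in the WT sets, so that WT set 1 exceeded psad1 sets 1 and 2. Its log2 difference of 0.38 (SE 0.34) was 0.18 without psad1 set 3, 0.24 without WT set 2, 0.59 without psad1 set 2 and 0.62 without WT set 1. SEH1H had 0.278, 0.452 and 0.707 in psad1 and 0.106, 0.399 and 0.520 in WT. The highest and the lowest psad1 value came from samples 5 and 6 of the same set, and WT sample 6 alone was under the floor. Its log2 difference of 0.33 (SE 0.36) was -0.0088 without WT set 3, 0.59 without WT set 2, 0.078 without WT sample 6 and 0.20 without psad1 sample 5.

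A group of 4 genes serves protein folding or the ubiquitin system. AT4G17070 is annotated as a peptidyl-prolyl isomerase, an enzyme type that helps proteins fold, AT1G21660 encodes a protein with a DnaJ domain, the part of a co-chaperone that engages larger heat shock chaperones, AT2G27630 encodes a relative of ubiquitin hydrolases and XERICO a RING-type zinc finger protein known to raise abscisic acid levels. Their median log2 difference was 0.37. AT4G17070 had 23.0, 24.9 and 26.7 in psad1 and 14.9, 16.1 and 20.4 in WT, a log2 difference of 0.56 (SE 0.11). Its psad1 sets lay between 24.8 and 25.2, while WT set 1 at 19.6 was above WT sets 2 and 3 at 15.8 and 15.5. XERICO had 3.08, 3.23 and 3.42 in psad1 and 2.27, 2.58 and 2.77 in WT, a log2 difference of 0.34 (SE 0.07). AT1G21660 had 2.58, 2.83 and 3.15 in psad1 and 2.13, 2.18 and 2.38 in WT, a log2 difference of 0.36 (SE 0.08).

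In these 3 genes every psad1 sample was above every WT sample, and each kept a difference of 0.28 or more whichever set was left out. AT2G27630 did not have this evenness. It was at 0.412, 0.414 and 0.616 in psad1 sets 1 to 3 and at 0.373, 0.440 and 0.292 in the WT sets, a log2 difference of 0.38 (SE 0.26) that was 0.19 without psad1 set 3 and 0.22 without WT set 3.

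**Figure D2:**
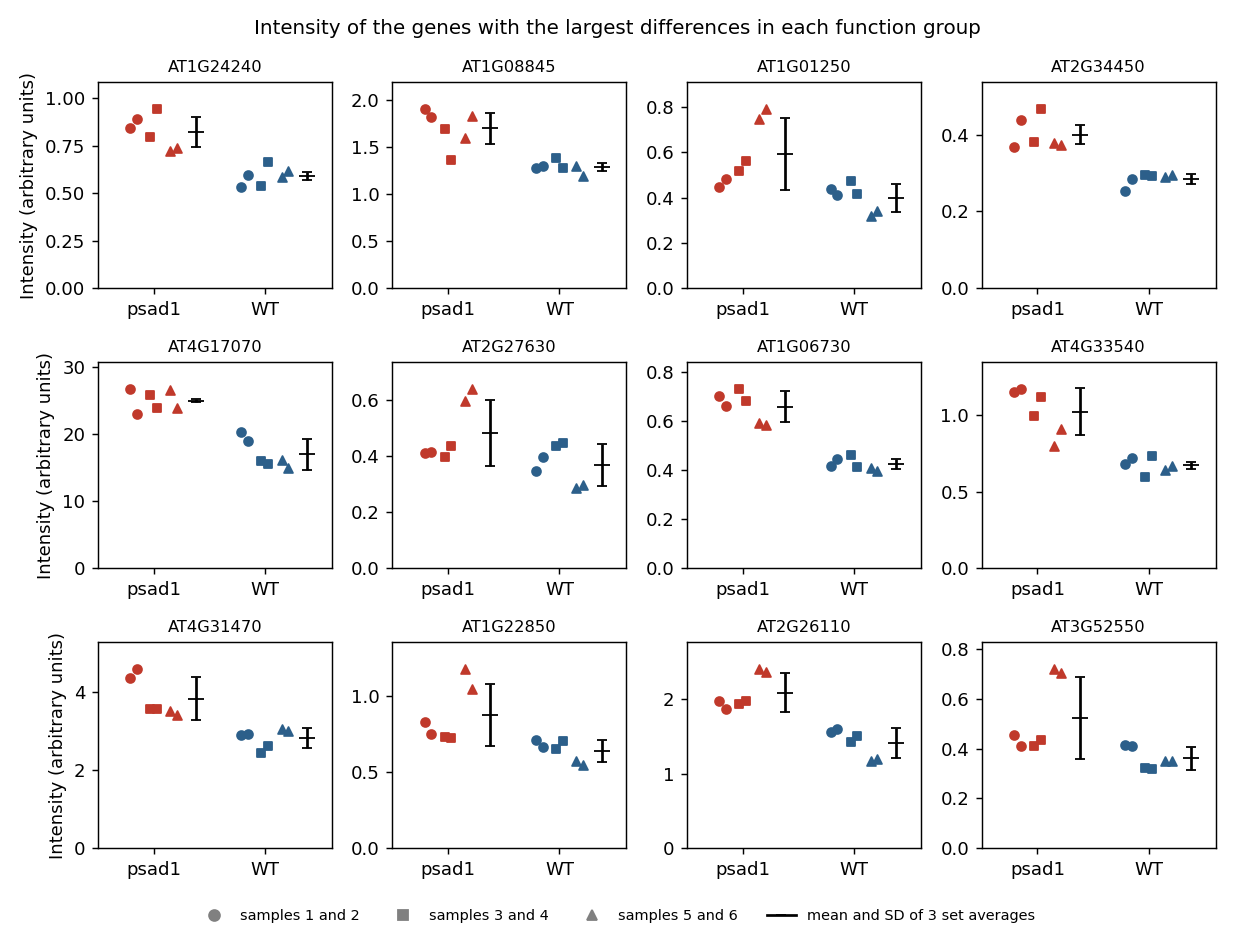
Intensity in arbitrary units, starting at 0, of the 2 probes with the largest log2 difference in each function group; red points are psad1 samples and blue points WT samples, with a marker shape for each set of 2 samples, and black bars give mean and SD of 3 set averages. The psad1 points of AT1G06730, AT4G33540, AT4G17070 and AT4G31470 lie wholly above the WT points, whereas in AT3G52550 and AT1G01250 psad1 samples 5 and 6 are far above the other psad1 samples.

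Enzymes of metabolism made up the largest group with a known role, 12 genes with a median log2 difference of 0.35, of which 6 had no overlap between samples. AT1G06730, a carbohydrate kinase of the pfkB type, had 0.583, 0.671 and 0.729 in psad1 and 0.395, 0.416 and 0.462 in WT. This was the largest log2 difference of all 44 probes, 0.63 (SE 0.09). AT4G33540, of the metallo-beta-lactamase family, had 0.797, 1.05 and 1.17 in psad1 and 0.593, 0.671 and 0.729 in WT, a log2 difference of 0.60 (SE 0.13). AT1G24040 encodes an acetyltransferase of the GNAT type, which moves acetyl groups onto amines. It had 0.947, 1.07 and 1.18 in psad1 and 0.541, 0.802 and 0.835 in WT, with a log2 difference of 0.58 (SE 0.20). Its WT set 3 at 0.550 was well under WT sets 1 and 2 at 0.807 and 0.829, and without it the difference was 0.39.

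AT4G20760, with a nucleotide-binding fold typical of dehydrogenases, had 0.497, 0.534 and 0.646 in psad1 and 0.357, 0.389 and 0.444 in WT, a log2 difference of 0.47 (SE 0.10). AT4G12270, of the copper amine oxidases, had 0.420, 0.449 and 0.493 in psad1 and 0.318, 0.360 and 0.402 in WT, a log2 difference of 0.34 (SE 0.06). Its set averages were close together, at 0.451 ± 0.00462 in psad1 and 0.358 ± 0.0245 in WT (SD, n = 3 sets each). AT4G24750, a rhodanese-like protein of the chloroplast, was at 1.08, 1.12 and 1.52 in psad1 sets 1 to 3 and at 0.969, 0.917 and 0.988 in the WT sets, a log2 difference of 0.36 (SE 0.16) that was 0.20 without psad1 set 3. All samples of these 3 enzymes were apart between the genotypes.

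In the other 6 enzymes samples overlapped. Z-ISO, the isomerase that acts on zeta-carotene on the way to lycopene, had 0.606, 0.789 and 0.937 in psad1 and 0.493, 0.590 and 0.751 in WT, a log2 difference of 0.34 (SE 0.22). UGT74D1, which attaches glucose to auxins, had 0.387, 0.466 and 0.547 in psad1 and 0.274, 0.374 and 0.473 in WT, a log2 difference of 0.34 (SE 0.21). LpxA, related to the bacterial enzyme that starts lipid A synthesis, had 1.34, 1.61 and 1.83 in psad1 and 1.03, 1.28 and 1.52 in WT, a log2 difference of 0.32 (SE 0.18). For these 3 enzymes the higher values of WT reached into the psad1 range, and the differences were 0.20 for Z-ISO without psad1 set 3, 0.18 for UGT74D1 without WT set 3 and 0.19 for LpxA without WT set 2. AT4G34310, of the alpha/beta hydrolases, had a log2 difference of 0.36, AT4G38040, of the exostosin family of glycosyltransferases, 0.32, and AT2G44530, a ribose-phosphate pyrophosphokinase of nucleotide synthesis, 0.31. In AT2G44530 the intensity was at or under the floor in 4 of 6 WT samples, and its difference was 0.048 with the floor at the 10th percentile and 0.23 when a constant was added instead. AT4G38040 was at 1.01 in psad1 set 1, against 0.566 and 0.713 in psad1 sets 2 and 3, and its difference was 0.096 without psad1 set 1, 0.165 without WT set 2 and 0.51 without psad1 set 2.

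Other genes could be looked up only by name, in broad classes whose members need not share a pathway with the genes above. The 11 name patterns matched 30 of the 640 probes with 1 gene, in 8 of 11 classes, with a median log2 difference of 0.096. Among them Z-ISO and UGT74D1 were the only genes of the group described here. By limma on 12 samples none of the 30 was higher in psad1 (against 6.56% of all probes with 1 gene) and 3 were lower, CSLA01, PRK and Cpn60beta3 (against 7.66%). Beside UGT74D1, the carbohydrate class held the endoglucanase genes GH9B8, GH9B11, GH9B12 and GH9B16 with log2 differences of 0.29, 0.19, 0.097 and 0.073, and CSLA01 and PPDK with -0.62 and -0.063. Beside Z-ISO, the lipid and isoprenoid class held FATB with -0.024.

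A group of 5 genes encodes membrane, metal-binding, secreted or interaction-domain proteins, with a median log2 difference of 0.38. AT4G31470, a secreted protein of the CAP family to which the pathogenesis-related protein PR-1 belongs, had 3.40, 3.56 and 4.58 in psad1 and 2.43, 2.91 and 3.06 in WT. All psad1 samples were above all WT samples, with psad1 set 1 at 4.47 above psad1 sets 2 and 3 at 3.56 and 3.46, and the log2 difference was 0.44 (SE 0.14). AT1G22850, of the SNARE-associated Golgi family of membrane proteins, had 0.722, 0.788 and 1.17 in psad1 and 0.544, 0.655 and 0.713 in WT, a log2 difference of 0.43 (SE 0.21). Its psad1 set 3 was at 1.11, against 0.788 and 0.727 in sets 1 and 2, and the difference was 0.25 without that set.

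A further probe lists AT1G22850 with its relatives AT1G03260 and AT5G19070, and had medians of 0.501 in psad1 and 0.407 in WT, a log2 difference of 0.32. It is the only one of the 3 shared probes that was higher in psad1. AT5G14910, with a heavy-metal-associated domain, had a log2 difference of 0.37 (SE 0.19), AT3G51930, a WD40 repeat protein, 0.38 (SE 0.34), and AT1G65370, with a TRAF-like domain, 0.33 (SE 0.16). The difference was 0.22 for AT5G14910 without WT set 3 and 0.19 for AT1G65370 without psad1 set 3. In AT3G51930 psad1 set 3 was at 0.714, against 0.491 and 0.371 in psad1 sets 1 and 2 and 0.451, 0.294 and 0.448 in the WT sets, and its difference was 0.13 without psad1 set 3, 0.17 without WT set 2 and 0.60 without psad1 set 2.

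For 13 genes no role is given here. Their median log2 difference was 0.37, and 3 of the 13 had no overlap between samples: AT2G26110, AT1G76220 and AT3G57440. AT2G26110 had 1.87, 1.97 and 2.40 in psad1 and 1.17, 1.47 and 1.59 in WT, a log2 difference of 0.57 (SE 0.16). AT1G76220 had 0.761, 0.861 and 1.01 in psad1 and 0.548, 0.622 and 0.667 in WT, a log2 difference of 0.49 (SE 0.10). AT3G57440 had 0.692, 0.751 and 0.875 in psad1 and 0.565, 0.583 and 0.623 in WT, a log2 difference of 0.37 (SE 0.08). These 3 genes were above WT in every psad1 set. AT3G52550, with a log2 difference of 0.50 (SE 0.27), and AT1G50750, with 0.48 (SE 0.20), had their high values in psad1 set 3. That set was at 0.713 for AT3G52550, against 0.434 and 0.423 in psad1 sets 1 and 2, and at 1.06 for AT1G50750, against 0.744 and 0.794. Without that set the difference of AT3G52550 was 0.25.

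AT1G44920 had the widest standard error of the 44 probes. It was at 0.479, 0.668 and 0.521 in psad1 sets 1 to 3 and at 0.378, 0.662 and 0.261 in WT sets 1 to 3, so that set 2 was nearly level between the genotypes. Its log2 difference was 0.47 (SE 0.44), with 0.12 without WT set 3, 0.22 without WT sample 6 and 0.84 without WT set 2. The other 7 genes had log2 differences of 0.43 (AT4G02800), 0.34 (AT2G20920), 0.32 (AT1G71910), 0.31 (AT1G63720), 0.31 (AT3G04560), 0.31 (AT5G65490) and 0.31 (AT4G16060), all with overlapping samples. AT4G16060 was at or under the floor in 4 of 6 WT samples, and its difference was 0.062 with the floor at the 10th percentile and 0.22 with 1 floor for all samples. AT3G04560 was at 0.094 without WT set 3, 0.20 without WT sample 6, 0.47 without psad1 set 1 and 0.48 without WT set 2. AT5G65490 was at 0.078 without psad1 set 3 and 0.19 without WT set 3, and AT1G71910 at 0.15 without WT set 3 and 0.53 without WT set 2. AT4G02800 was at 0.27 without WT set 3 and AT1G63720 at 0.18 without psad1 set 3 and 0.20 without WT set 3.

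Across the 44 probes the high psad1 values fell more often in set 3 or set 1 than in set 2. Set 3 was the highest psad1 set in 23 probes (52.3%, against 41.7% of all probes with 1 gene), set 1 in 14 (31.8% against 11.7%) and set 2 in 7 (15.9% against 46.6%). On the WT side set 3 was the lowest in 26 probes (59.1% against 46.1%), set 2 in 16 (36.4% against 26.6%) and set 1 in 2 (4.55% against 27.3%). In 17 probes set 3 was both the highest of psad1 and the lowest of WT, as in 22.5% of all probes with 1 gene. A selection on the mean difference favours genes with a high psad1 set or a low WT set, so these shares are a description. Leaving out psad1 set 1, 2 or 3 moved the log2 difference by more than 1.5 times in 4, 3 and 11 probes, leaving out WT set 1, 2 or 3 did so in 1, 8 and 10 probes, and 22 of the 44 probes were moved this far by at least 1 set. The SD between set averages on the log2 scale had a median of 0.20 in psad1 and 0.19 in WT for the 44 probes, against 0.15 in psad1 and 0.12 in WT over all probes with 1 gene.

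**Figure D3:**
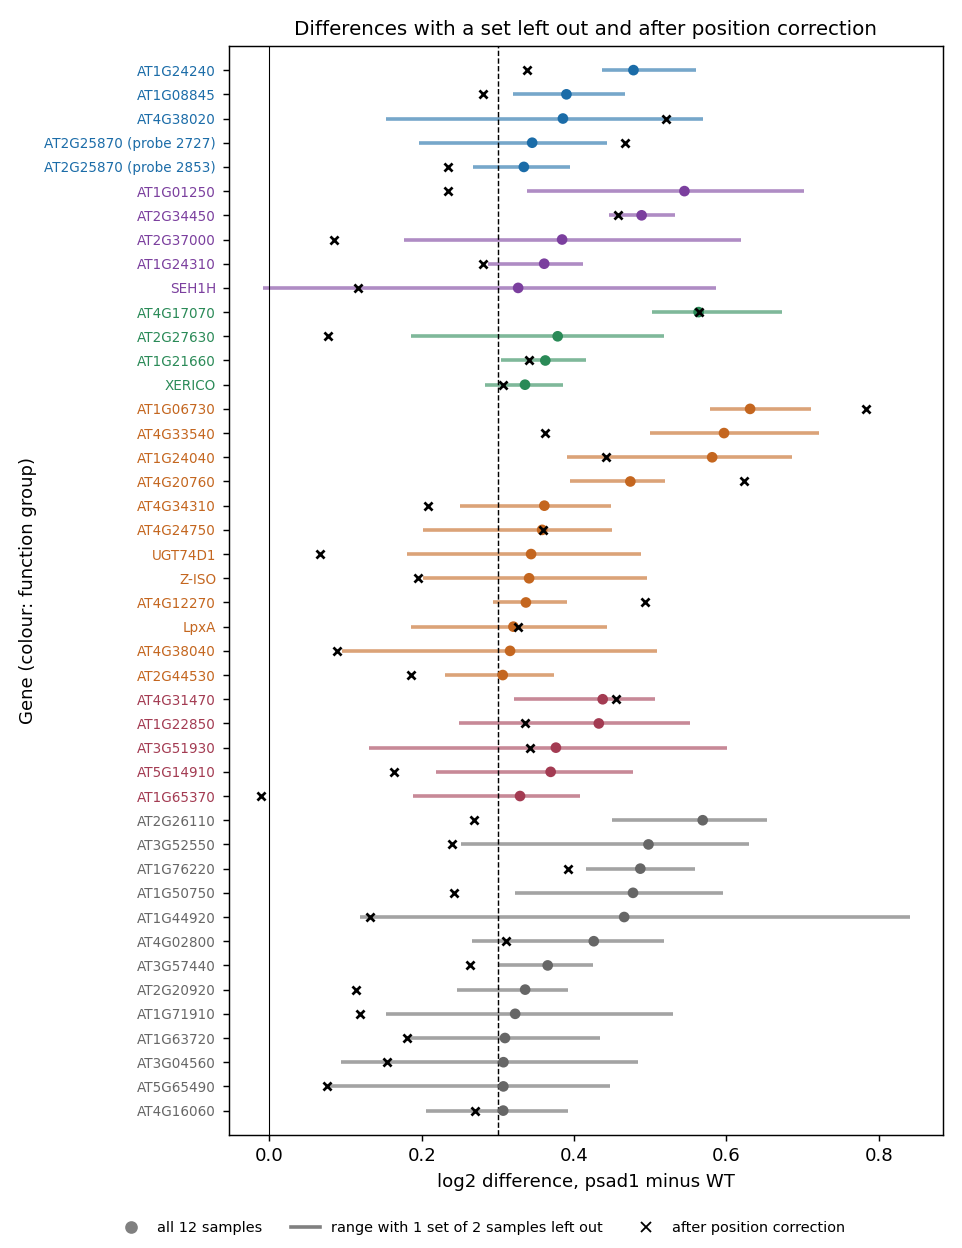
For each probe, ordered by function group, the dot is the log2 difference (psad1 minus WT) on all 12 samples, the bar its range when 1 set of 2 samples is left out, and the cross its value after the position correction; the dashed line is the threshold of 0.30. The bars of AT1G06730, AT4G17070, AT4G33540 and AT2G34450 stay right of the threshold, and that of SEH1H reaches just below 0.

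The probes also differed in where they stood in the array's numbering. Of the tested probes with 1 gene, 15.6% of those numbered 1501 to 2000 and 11.6% of those numbered 2001 to 2500 belonged to the group, against 1.49% of those numbered 3501 to 4000 and 1.59% of those numbered 4001 to 4500. The median log2 difference over all tested probes was 0.13 in the range 1501 to 2000 and 0.084 in 2001 to 2500, against -0.077 in 3501 to 4000 and -0.058 in 4001 to 4500. For each of the 44 probes the 24 tested probes nearest in number were taken, without the probe itself, and the median of their log2 differences was above 0.1 for 27 of the 44 probes, against 128 of all 640 probes with 1 gene. The labels do not say whether the numbering follows the layout of the array.

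**Figure D4:**
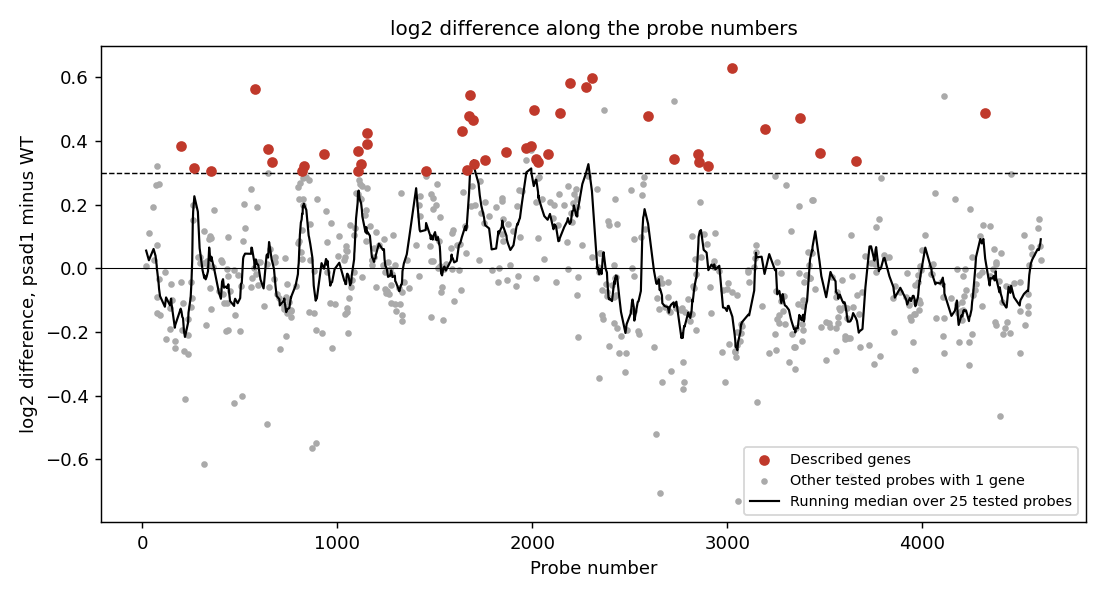
The log2 difference (psad1 minus WT) of each tested probe with 1 gene against its probe number; red points are the described genes, grey points the others, which include the 6 genes set aside, the black line is the running median over 25 tested probes that the position correction uses, and the dashed line is the threshold of 0.30. Many red points between numbers 1501 and 2500 lie over a raised part of the line, while AT1G06730 and AT4G20760 lie over a lowered part.

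When that running median was subtracted from each sample, 19 of the 44 probes kept a log2 difference of 0.30 or more and their median over all 44 was 0.27. The count was 3 of 5 probes for RNA processing and translation, 1 of 5 for transcription and the nuclear pore, 3 of 4 for protein folding and ubiquitin, 7 of 12 for metabolic enzymes, 3 of 5 for membrane, metal-binding, secreted and interaction-domain proteins and 2 of 13 for genes with no role given. The difference became larger in AT1G06730 (0.78), AT4G20760 (0.62), AT4G38020 (0.52), AT4G12270 (0.49) and AT2G25870 on probe 2727 (0.47). It fell by more than 2 times in 14 probes: AT1G01250 (0.23), AT2G37000 (0.085) and SEH1H (0.12) of the nuclear group, AT2G27630 (0.077) of the ubiquitin group, the enzymes UGT74D1 (0.066) and AT4G38040 (0.089), AT5G14910 (0.16) and AT1G65370, where it was -0.011, and AT2G26110 (0.27), AT3G52550 (0.24), AT1G44920 (0.13), AT2G20920 (0.11), AT1G71910 (0.12) and AT5G65490 (0.076) with no role given. It was lower by between 1.5 and 2 times in AT4G33540 (0.36), Z-ISO (0.20), AT4G34310 (0.21), AT2G44530 (0.19), AT1G50750 (0.24), AT1G63720 (0.18) and AT3G04560 (0.15). The part that position has in these differences was not tested further.

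Among the 17 probes in which set 3 was both the highest of psad1 and the lowest of WT, the neighbours' median log2 difference was 0.22 and 3 probes stayed at 0.30 or more after the correction. Among the other 27 it was 0.032 and 16 stayed. The median difference before the correction was 0.37 in the 17 probes and 0.38 in the other 27. In 10 probes all psad1 samples were above all WT samples, the difference stayed at 0.30 or more after the position correction, and it did so whichever set was left out: AT1G06730, AT4G33540, AT1G24040, AT4G20760, AT4G17070, AT1G21660, AT2G34450, AT1G24240, AT1G76220 and AT4G31470. These 10 were picked after their values were seen. The rule that chose the genes used the same difference, so nothing is read from this count. All psad1 samples were above all WT samples in 4.22% of the probes with 1 gene. For the conditions together that share was not computed. Of the 10 probes, that of AT2G34450 lay in the dimmest 25% of tested probes. Its difference was 0.38 when a constant was added instead of a floor.

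The signal limits some of these values. The mean WT intensity was under 1 in 37 of the 44 probes and over 2 in 4, with floors between 0.152 and 0.184 in the 12 samples, and 3 probes (AT2G44530, AT4G16060 and SEH1H) had at least 1 sample at or under the floor. Of the 43 genes, 16 were on chromosome 1, 9 on chromosome 2, 4 on chromosome 3, 12 on chromosome 4 and 2 on chromosome 5 by their locus tags, where the measured genes with a probe of their own numbered 155, 121, 120, 116 and 125. AT4G38020 and AT4G38040 are separated by 1 protein-coding gene in assembly TAIR10.1, and AT1G24240 and AT1G24310 by 9. In AT4G38020 and AT4G38040 psad1 set 1 was the highest psad1 set, and their probes, 202 and 268, are also near each other in number. Their surroundings differed, with a neighbours' median log2 difference of -0.19 for probe 202 and 0.22 for probe 268. After the position correction their differences were 0.52 and 0.089.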

How the data were processed

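The deposited values were a single table of intensities for 3439 probes in 12 samples. Nothing in the sources used here names the scanner, background correction or scaling behind the authors' intensities. The unit was read from the values, and column means agreed, so the intensity was used as deposited. Levels were compared within a probe only.

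Intensities under the 5th percentile of a sample's positive values were set to it, 237 probes at it in all samples were dropped, and log2 was taken of the 3202 others. Probe names came from the platform annotation (692 probes with 1 gene, of which 690 matched the gene table of TAIR10.1). limma 3.58.1 in R 4.3.3 (lmFit, eBayes, Benjamini-Hochberg over 3202 probes), tested on simulated data, gave background counts only. The simulated samples were independent, whereas samples of a set here correlated at 0.727 in the fit with sets as a random block. The simulation therefore does not check the fit on 12 samples under that likeness. The position correction subtracted, per sample, the running median over 25 tested probes of deviations from probe means. Alternatives were other floors, an offset of 0.1, scalings, position, a filter on dim probes, other replicate units and leaving out samples or sets. Figures used matplotlib 3.10.9.

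The genes and lists were chosen with earlier results of these data known. Named with values were the 10 largest differences, up to 3 per function group, those nearest the threshold, any with an outlying sample, and those that fell by more than 2 times under the position correction or without a set. Planned looks at promoter motifs and protein ends were not done, since no sequences were at hand. The labels number the samples but state no pairing, and samples were compared unpaired except in the limma fit with a replicate block. Same-numbered deviations correlated from 0.0081 to 0.483, and 4 of 6 were over 0.1, so pairing is not excluded. Where same-numbered sets rise and fall together, as in UGT74D1, the unpaired SE and the overlap of samples include that shared part. In 17 probes set 3 was instead the highest of psad1 and the lowest of WT. The limma fit with the replicate number as a block pairs same-numbered samples. In it 28 of the 44 probes were higher in psad1 at an adjusted p under 0.05, against 29 without the block. Nothing is read from these counts, and differences by pair of single probes are not given.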

Additional observations from a re-analysis of the deposited data

Results flagged for a closer look

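Of 88 sets of 6 values examined, 44 probes in each genotype, 1 held a sample far from the rest, where chance marks about 1 in 20 if samples are independent, which these were not. In AT2G34450 WT sample 1 was at 0.252, against 0.284 to 0.295 in the other 5 WT samples, and the gap was 0.752 of the WT range. Without WT set 1, which holds this sample, the log2 difference was 0.45. A pair of similar samples that lies apart together, such as psad1 samples 5 and 6 in AT3G52550, are not marked in this way.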

How the results depend on the processing

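Of the 1090 recomputed log2 differences of single probes, 1074 moved by less than the SD between samples, 14 by more (12 after the position correction and 2 with a floor at the 10th percentile, AT2G44530 to 0.048 and AT4G16060 to 0.062), and 2 changed sign: AT1G65370 to -0.011 after the position correction and SEH1H to -0.0088 without WT set 3 (up to 0.59 without other sets or samples). The cause was not tested. Leaving out a sample or a set cannot move a mean by as much as the SD of the samples averaged. The filter on dim probes left the 34 values that it kept unchanged, and another floor can change only probes with a sample near it. The 1074 are therefore no measure of stability for those settings. Without at least 1 of the sets, 22 of the 44 probes moved by more than 1.5 times. Against 44 probes at 0.30 or more, an offset in place of a floor gave 28, all among the 44. Adding a constant shrinks log2 differences, most in dim probes. That setting also drops the floor, and in it AT4G16060 was higher, at 0.35 against 0.31. The position correction gave 27, of which 19 were among the 44. With a sample or set left out the count ranged from 32 (psad1 set 3) to 75 (psad1 set 1), and of the 44 between 26 (psad1 set 3) and 43 stayed, with 28 without WT set 3. Samples did not overlap in 19 to 26, a count that leaving samples out cannot lower. It was 13 after the position correction, 15 with quantile normalization and 16 with median centring. By limma, 29 of the 44 probes passed on 12 samples (6.56% of the probes with 1 gene) and 1 on set averages (0.312%). With sets as a random block 8 passed, with the replicate block 28 and with a sample left out 20 to 31. For these last fits, and for overlap under other settings than the main one (4.22%), the share of all probes with 1 gene was not computed. Nothing is read from these counts. Counts under the other alternatives lay within 1.5 times. Nearness to the floor limits AT2G44530, AT4G16060 and SEH1H. The filter on dim probes left 34 of the 44, and AT2G34450, UGT74D1 and AT4G12270 were among those it removed. With the offset their differences were 0.38, 0.27 and 0.27.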
